A study of Mus musculus with 35 samples.

Results

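Ribosome biogenesis factors are the proteins that build ribosomes in the nucleolus and do not stay in the finished particle. A list of 55 such mouse genes was followed in lung RNA, and 53 of them were measured among 19938 genes on the arrays. Each gene was read from a probe set that carried its symbol alone, chosen by the highest mean signal over all 35 arrays where there were several. The list itself was drawn up with earlier results of these arrays known, so its counts are set beside those of all genes as a description. Npm3 and Noc2l are not analysed here, because no probe set carried either symbol alone. Probe set numbers on this array run by chromosome, and for 50 of the 53 genes most of the 20 nearest-numbered probe sets belonged to genes of the same chromosome (RefSeq). For Wdr12, Fbl and Ddx18 they did not: 0, 1 and 0 of 20 did, so the values used for these 3 genes may come from a copy elsewhere in the genome, and their second probe sets are given at the end.

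Each array held the lung of 1 adult male C57BL/6J mouse (an inbred laboratory strain) weighing 20 to 25 g, and every lung had been lavaged before it was frozen. Mechanical ventilation lasted 3 h, under anaesthesia and through a tracheostomy. High stretch hypercapnia (10 arrays) was a tidal volume of about 35 to 40 mL/kg at a peak inspiratory pressure of 27 cmH2O, no end-expiratory pressure and 30 to 35 breaths per minute, in 75% oxygen with 12% CO2 and the rest nitrogen. High stretch normocapnia (10 arrays) had the same settings and oxygen without CO2. Low stretch hypercapnia (5 arrays) was 10 mL/kg with an end-expiratory pressure of 2 cmH2O at 135 breaths per minute in room air with 12% CO2, and low stretch normocapnia (5 arrays) was the same in room air alone. The non-ventilated mice (5 arrays) breathed room air spontaneously. High and low stretch thus differed in tidal volume, pressure, rate and oxygen together, and these cannot be told apart.

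A new ribosome starts with RNA polymerase I, which transcribes the long ribosomal RNA precursor. Small nucleolar ribonucleoproteins (snoRNPs) of the box C/D class guide methylation of that RNA and those of the box H/ACA class guide pseudouridylation, while the UTP-A and UTP-B complexes assemble on the growing transcript. Other factors then trim, fold and export the small and the large subunit separately. Many of these genes carry binding sites for the transcription factor MYC and are known as its targets in growing cells. The list was divided by these steps: 4 RNA polymerase I genes, 4 box C/D genes, 5 box H/ACA genes, 10 UTP-A and UTP-B genes, 13 other small subunit factors, 14 measured large subunit factors, and 3 measured nucleolar chaperones and helicases.

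Values are log2 signals, on which 1 unit is a doubling, and each change is a difference of such levels. All 53 genes lay above the median gene in mean signal, and no measure of detection was used. Their means over the 35 arrays ran from 7.73 in Grwd1, above 54.8% of all genes, to 10.54 in Imp3, above 94.7%. The tissue label was borne out by high signals in all groups for the lung markers Sftpc (surfactant, group means 14.01 to 14.04), Scgb1a1 (club cells, 13.72 to 13.77), Ager (alveolar type 1 cells, 12.90 to 12.95) and Pecam1 (endothelium, 11.58 to 11.75). Array medians lay between 6.96 and 7.05 and no pair of arrays was identical. Since these are whole lungs, fewer cells of a type and less RNA per cell cannot be told apart.

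Promoter sequence, taken from RefSeq (GRCm38.p6) over 250 bases before to 50 bases after the start of each gene, was available for 46 of the 53 genes. The MYC/MAX E-box, CACGTG, which reads the same on both strands, stood in the window of 11 of them (23.9%), against 9.5% of 15614 genes on the arrays and 8.09% of 27025 genes in the whole table. The ETS site CCGGAAG, searched on both strands, stood in 17 (37.0%), against 13.6% and 9.93%. The motifs do not overlap at any site shown here. Among genes whose E-box lay wholly before the start, the 3 with the largest change at high stretch in normocapnia were Utp18, Nop2 and Imp4. Utp18 (0.55) belongs to the UTP-B complex, Nop2 (0.41) is a large subunit RNA methyltransferase and Imp4 (0.31) a small subunit factor. The only other such gene was Rrn3 (0.27). Genes with the E-box after the start had changes from 0.18 in Pes1 to 0.65 in Tsr1. The 250 bases before the start of Utp18, Nop2 and Imp4 are shown, with both motifs in capitals. They lie on chr11:93885767-93886016 (minus strand), chr6:125131633-125131882 (plus strand) and chr1:34439579-34439828 (plus strand), and the E-box begins 20, 60 and 121 bases before the start.
Utp18: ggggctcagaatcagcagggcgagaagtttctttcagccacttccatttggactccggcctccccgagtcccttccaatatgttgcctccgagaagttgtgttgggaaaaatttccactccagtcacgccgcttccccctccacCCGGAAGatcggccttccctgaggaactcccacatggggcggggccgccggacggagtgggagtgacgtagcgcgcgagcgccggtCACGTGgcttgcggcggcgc
Nop2: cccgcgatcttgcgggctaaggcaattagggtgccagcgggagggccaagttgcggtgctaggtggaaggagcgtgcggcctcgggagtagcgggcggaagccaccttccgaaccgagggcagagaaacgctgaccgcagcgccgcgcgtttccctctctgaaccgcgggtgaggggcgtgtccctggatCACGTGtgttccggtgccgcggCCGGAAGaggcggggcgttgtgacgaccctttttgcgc
Imp4: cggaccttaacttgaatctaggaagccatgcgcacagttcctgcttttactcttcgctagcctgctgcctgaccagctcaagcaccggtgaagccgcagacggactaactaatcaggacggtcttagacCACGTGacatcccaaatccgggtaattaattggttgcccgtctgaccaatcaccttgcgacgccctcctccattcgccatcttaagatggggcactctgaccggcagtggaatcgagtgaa
A match of letters is a description, and nothing on these arrays measured binding of a factor there.

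The pattern over the 5 groups was simple. The genes were highest at high stretch in normocapnia, lower when CO2 was added at high stretch, and lowest at low stretch with CO2 or without ventilation. Averaged over the 53 genes as a deviation from each gene's own mean over the 35 arrays, the level was 0.01 ± 0.10 (SD, n = 10) in high stretch hypercapnia, 0.27 ± 0.10 (n = 10) in high stretch normocapnia, -0.24 ± 0.09 (n = 5) in low stretch hypercapnia, -0.09 ± 0.12 (n = 5) in low stretch normocapnia and -0.23 ± 0.10 (n = 5) without ventilation. By array, high stretch hypercapnia spanned -0.19 to 0.14 with a median of 0.03, and high stretch normocapnia spanned 0.07 to 0.42 with a median of 0.27. The 5 low stretch hypercapnia arrays were at -0.28, -0.30, -0.19, -0.12 and -0.32, the 5 low stretch normocapnia arrays at -0.01, -0.19, -0.16, -0.17 and 0.09, and the 5 non-ventilated arrays at -0.18, -0.31, -0.18, -0.36 and -0.11. High stretch normocapnia overlapped with high stretch hypercapnia, and with low stretch normocapnia only through its lowest array, at 0.07, and the highest low stretch array, at 0.09. High stretch normocapnia and low stretch hypercapnia did not overlap. Low stretch hypercapnia and non-ventilated lungs lay within each other's SD.

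**Figure D1:**
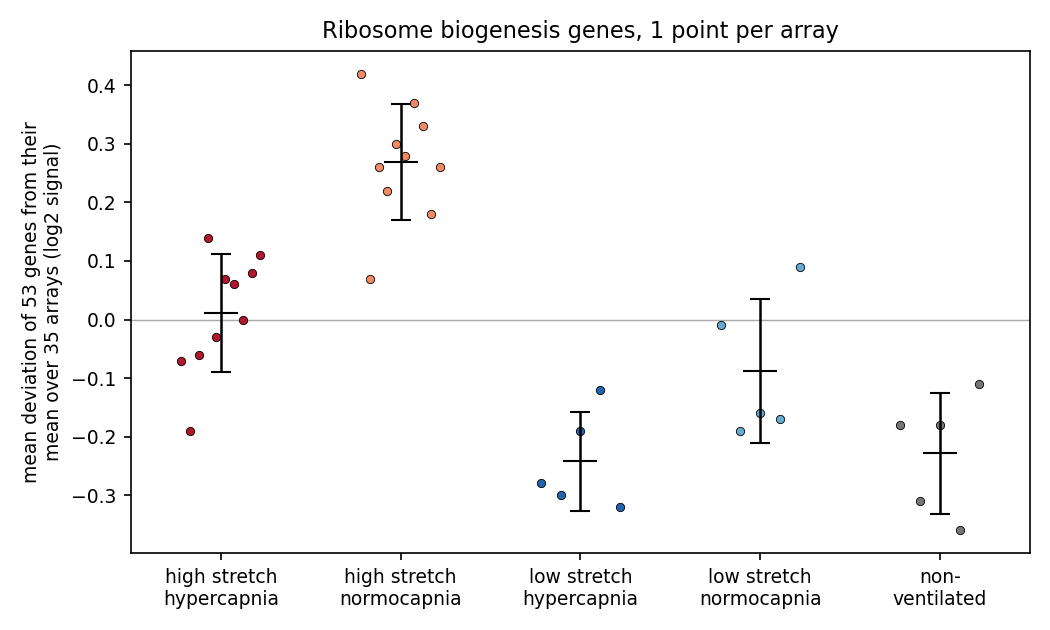
Mean deviation of the 53 genes from their own means over 35 arrays (y axis, log2 signal) for each array (points) in the 5 groups (x axis), with bars for mean ± SD. The 10 high stretch normocapnia arrays lie between 0.07 and 0.42 and the 10 high stretch hypercapnia arrays between -0.19 and 0.14.

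Gene by gene the order was much the same. High stretch normocapnia had the highest group mean in 51 of 53 genes. The exceptions were Imp3, which helps the precursor RNA pair with its guide snoRNA and was highest in low stretch hypercapnia, and Nop10, a small core protein of the box H/ACA particle, highest in high stretch hypercapnia. The lowest mean was in low stretch hypercapnia for 28 genes and in non-ventilated lungs for 23. In 36 genes the mean in high stretch hypercapnia lay between those of low and high stretch normocapnia.

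**Figure D2:**
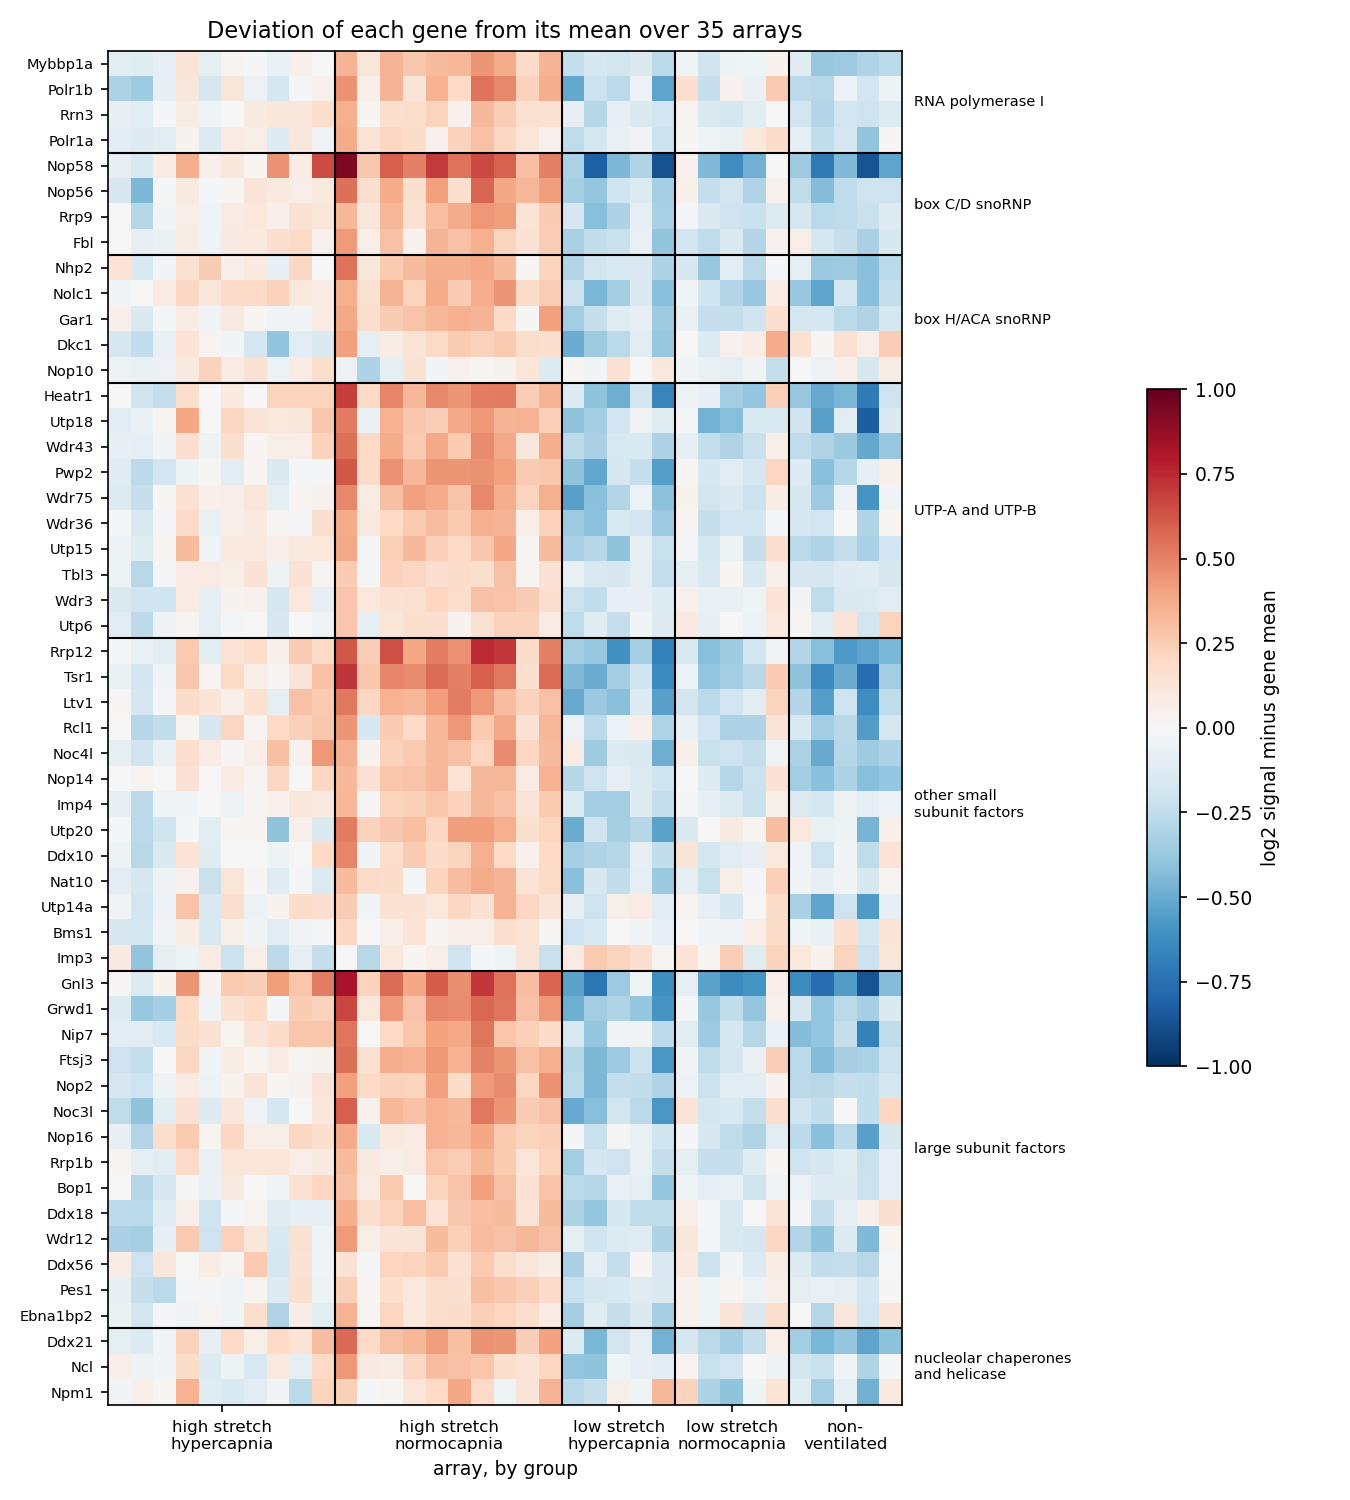
Deviation of each of 53 genes (rows, ordered by step of ribosome assembly) from its mean over 35 arrays (columns, by group), in log2 signal, with red above and blue below the mean. High stretch normocapnia has the highest group mean in 51 of 53 genes, and Imp3 and Nop10 depart from the pattern.

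High stretch normocapnia against low stretch normocapnia asks what injurious ventilation settings did to these genes without added CO2. Ribosome assembly genes rose across every step: 44 of 53 rose (83.0%) and none fell, where 8.72% of all genes rose and 9.56% fell (limma, adjusted p under 0.05 over all 19938 genes). The median change was 0.36, against -0.02 over all genes, and 52 of 53 changes were above 0, as were 43.4% of those of all genes. In 19 genes all 10 high stretch arrays lay above all 5 low stretch arrays, which 3.73% of all genes did. All 53 lie among the 9969 genes above the median level, of which 1694 rose when those alone were tested. Within the groups, all 4 box C/D genes rose, as did 13 of 14 large subunit factors, 9 of 10 UTP-A and UTP-B genes, 10 of 13 other small subunit factors, 3 of 4 RNA polymerase I genes, 3 of 5 box H/ACA genes and 2 of 3 chaperones and helicases.

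The largest rise was in Gnl3, which encodes nucleostemin, a nucleolar GTPase of large subunit assembly. Its signal ran from 9.09 to 9.69 with a median of 9.42 in high stretch normocapnia, against 8.78, 8.33, 8.24, 8.27 and 8.93 in low stretch normocapnia. Every high stretch array was above every low stretch array, by 0.88 ± 0.12 on the log2 scale (SE, 1.84-fold, adjusted p 1.63e-06). Nop58, a core protein of the box C/D particle, ran from 9.60 to 10.26 with a median of 9.89 in high stretch normocapnia, against 9.37, 8.89, 8.71, 8.85 and 9.33 in low stretch normocapnia. The groups were again apart, by 0.86 ± 0.13 (1.82-fold, adjusted p 5.47e-06). Rrp12, which helps to export both subunits from the nucleus, ran from 8.15 to 8.70 with a median of 8.47 in high stretch normocapnia, against 7.80, 7.53, 7.60, 7.77 and 7.92 in low stretch normocapnia. Its rise of 0.73 ± 0.09 (1.66-fold, adjusted p 1.06e-07) had the smallest p of the list, with no overlap.

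Other rises in each step were smaller. Among the RNA polymerase I genes, Mybbp1a, a nucleolar regulator of the polymerase, rose by 0.36, Polr1b, a catalytic subunit, by 0.28 and the initiation factor gene Rrn3 by 0.27, while Polr1a, the largest subunit, was at 0.15 (adjusted p 0.0948). The other box C/D genes were Nop56 (0.48), Rrp9 (0.43) and the methyltransferase gene Fbl, fibrillarin (0.41). In the box H/ACA group Nhp2 rose by 0.48, the particle chaperone gene Nolc1 by 0.46 and Gar1 by 0.38, whereas Dkc1, the pseudouridine synthase dyskerin, was at 0.11 (adjusted p 0.393) and Nop10 at 0.07 (adjusted p 0.542). UTP-A and UTP-B genes ranged from 0.12 in Utp6, which did not pass (adjusted p 0.175), to 0.55 in Utp18 and Heatr1. Among the other small subunit factors, Rrp12 (0.73) was followed by Tsr1 (0.65) and Ltv1 (0.47), and the last 2 act late, in the cytoplasm. Utp14a (0.18), the GTPase gene Bms1 (0.04) and Imp3 (-0.15) did not pass (adjusted p 0.114, 0.699 and 0.229).

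Among large subunit factors Grwd1, a histone and ribosomal protein chaperone, rose by 0.63, Nip7 by 0.50 and the RNA methyltransferase gene Ftsj3 by 0.44. The 3 proteins of the PeBoW complex, which is needed to process the large subunit RNA, rose less: Bop1 by 0.32, Wdr12 by 0.25 (from the probe set in doubt) and Pes1 by 0.18. Ebna1bp2 was at 0.15 (adjusted p 0.159). Of the remaining group, the RNA helicase gene Ddx21 rose by 0.56 and Ncl, nucleolin, by 0.31, while Npm1, nucleophosmin, was at 0.23 (adjusted p 0.136). Npm1 also matched probe sets shared with a second gene symbol, which were not used, so its value is uncertain where near-identical copies share signal.

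High stretch hypercapnia against high stretch normocapnia asks what inspired CO2 did under injurious settings. Most genes of every step were lower with CO2: 40 of 53 genes fell (75.5%) and none rose, where 3.07% of all genes fell and 2.49% rose (limma, same threshold). The median change was -0.25, against -0.01 over all genes, and 52 of 53 changes were below 0, as were 53.0% of those of all genes. When the 9969 genes above the median level were tested alone, 681 of them fell. All 4 RNA polymerase I genes and all 4 box C/D genes fell, with 8 of 10 UTP-A and UTP-B genes, 9 of 13 other small subunit factors, 10 of 14 large subunit factors, 3 of 5 box H/ACA genes and 2 of 3 chaperones and helicases. With the arrays centred on their medians 43 of the 53 fell, while the calls over all genes, 497 higher and 612 lower as deposited, became 354 higher and 721 lower.

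The largest fall was in Pwp2, a scaffold of the UTP-B complex. It ran from 7.66 to 7.94 with a median of 7.84 in high stretch hypercapnia, against 8.11 to 8.54 with a median of 8.35 in high stretch normocapnia. No array with CO2 reached the lowest array without it, and the change was -0.47 ± 0.06 (SE, 1.39-fold lower, adjusted p 1.71e-05). Rrp12 ran from 7.84 to 8.22 with a median of 8.05 in high stretch hypercapnia, against 8.15 to 8.70 with a median of 8.47 in high stretch normocapnia. Its groups overlapped slightly at a change of -0.43 ± 0.07 (1.34-fold lower, adjusted p 0.000211). Noc3l, a nuclear export factor of the large subunit, ran from 7.50 to 8.05 with a median of 7.83 in high stretch hypercapnia, against 7.95 to 8.50 with a median of 8.23 in high stretch normocapnia. It changed by -0.42 ± 0.08 (1.34-fold lower, adjusted p 0.000577), also with some overlap.

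The arrays of the 2 groups did not overlap in 5 genes (9.43% of the list), Nop2, Utp20, Nop56, Pwp2 and Ddx18 (the last from the probe set in doubt), and every high stretch array lay lower with CO2 than without it in 0.261% of all genes. The smallest adjusted p was 1.10e-05 in Mybbp1a, which fell by 0.33. Polr1b fell by 0.41, Polr1a by 0.22 and Rrn3 by 0.16. In the box C/D group Nop58 fell by 0.40, Nop56 by 0.37, Rrp9 by 0.26 and Fbl by 0.19. Dkc1 fell by 0.30, Gar1 by 0.27 and Nhp2 by 0.23, whereas Nolc1 was at -0.18 (adjusted p 0.0509) and Nop10 at 0.08 (adjusted p 0.427). Falls elsewhere included Tsr1 (0.42), Utp20 (0.41), Grwd1 (0.41), Ftsj3 (0.38), Heatr1 (0.37), the helicase gene Ddx18 (0.36) and the RNA acetyltransferase gene Nat10 (0.29). Imp3 was at -0.06 (adjusted p 0.724).

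**Figure D3:**
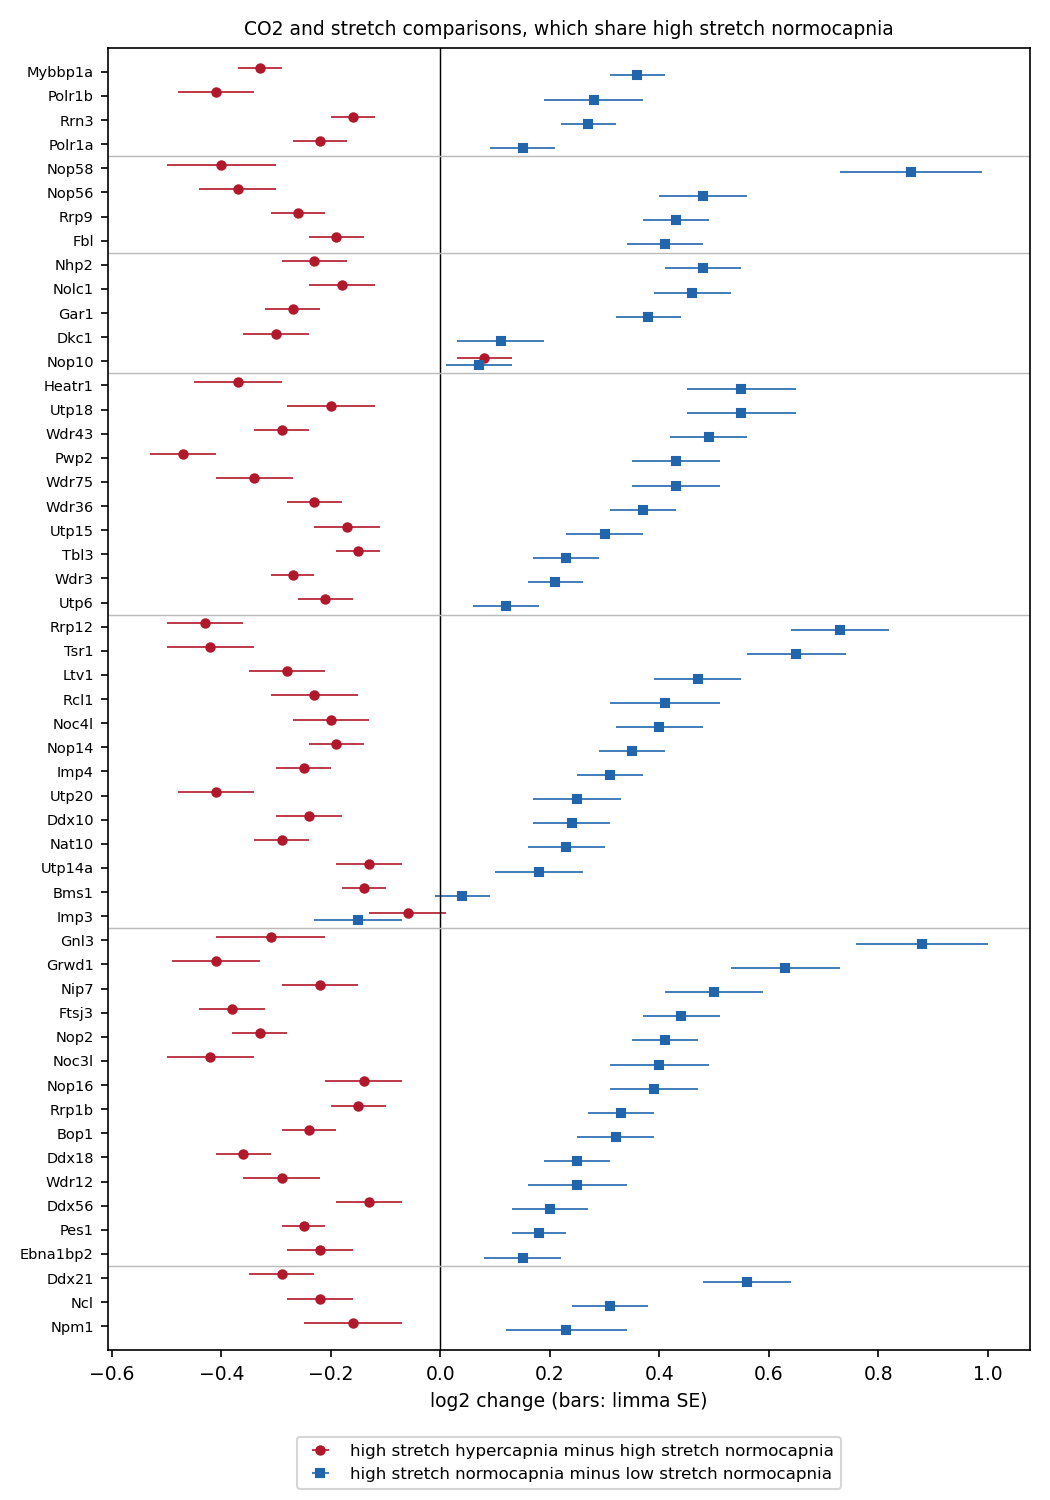
Log2 change with its limma SE (x axis) for each of 53 genes (y axis, by step of assembly), for high stretch hypercapnia minus high stretch normocapnia (circles) and high stretch normocapnia minus low stretch normocapnia (squares). The first lies below 0 in 52 genes and the second above 0 in 52 genes, and both use the same high stretch normocapnia arrays.

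These comparisons share the 10 high stretch normocapnia arrays, so a high or low signal there enters both with opposite sign. With that in mind, 35 genes rose at high stretch and fell with CO2 at high stretch. A further 9 rose at high stretch without passing for CO2: Ddx56, Gnl3, Nip7, Noc4l, Nolc1, Nop16, Rcl1, Utp15 and Utp18. Gnl3, the largest rise of all, was at -0.31 ± 0.10 with CO2 (adjusted p 0.0505). In 5 genes, Bms1, Dkc1, Ebna1bp2, Polr1a and Utp6, the fall with CO2 passed and the rise at high stretch did not. Npm1 and Nop10 passed in none of the 6 comparisons.

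High stretch hypercapnia against low stretch hypercapnia asks whether the stretch difference was also present when both groups inhaled CO2, and shares no array with the stretch comparison in normocapnia. It was present: 31 of 53 genes rose (58.5%) and 1 fell, where 5.43% of all genes rose and 4.69% fell. The median change was 0.25, against -0.03 over all genes, and 52 of 53 changes were above 0, as were 39.9% of those of all genes. All 31 had also risen at high stretch in normocapnia. In 10 genes every high stretch array was above every low stretch array, as in 1.84% of all genes. All 4 box C/D genes rose, with 7 of 10 UTP-A and UTP-B genes, 7 of 13 other small subunit factors, 7 of 14 large subunit factors, 3 of 5 box H/ACA genes, 2 of 4 RNA polymerase I genes and 1 of 3 chaperones and helicases.

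Nop58 ran from 9.18 to 9.98 with a median of 9.40 in high stretch hypercapnia, against 9.01, 8.51, 8.88, 9.03 and 8.46 in low stretch hypercapnia. The groups did not overlap, at a rise of 0.71 ± 0.13 (SE, 1.63-fold, adjusted p 0.000222). Gnl3 ran from 8.73 to 9.38 with a median of 9.12 in high stretch hypercapnia, against 8.33, 8.14, 8.50, 8.82 and 8.25 in low stretch hypercapnia. It rose by 0.67 ± 0.12 (1.59-fold, adjusted p 0.000215), with 1 low stretch array inside the high stretch range. Rrp12 ran from 7.84 to 8.22 with a median of 8.05 in high stretch hypercapnia, against 7.61, 7.58, 7.35, 7.62 and 7.28 in low stretch hypercapnia. It rose by 0.55 ± 0.09 (1.46-fold, adjusted p 3.83e-05) with no overlap.

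Imp3 was the exception. It ran from 10.15 to 10.63 with a median of 10.46 in high stretch hypercapnia, against 10.62, 10.80, 10.76, 10.71 and 10.57 in low stretch hypercapnia. The high stretch arrays were mostly lower, by 0.26 on the log2 scale (SE 0.08, adjusted p 0.0319), but the call was lost in 6 of the 15 fits that left out 1 array. Those arrays were low stretch hypercapnia replicates 2, 3 and 4 and high stretch hypercapnia replicates 2, 8 and 10, and the adjusted p without each lay between 0.0528 and 0.103.

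**Figure D4:**
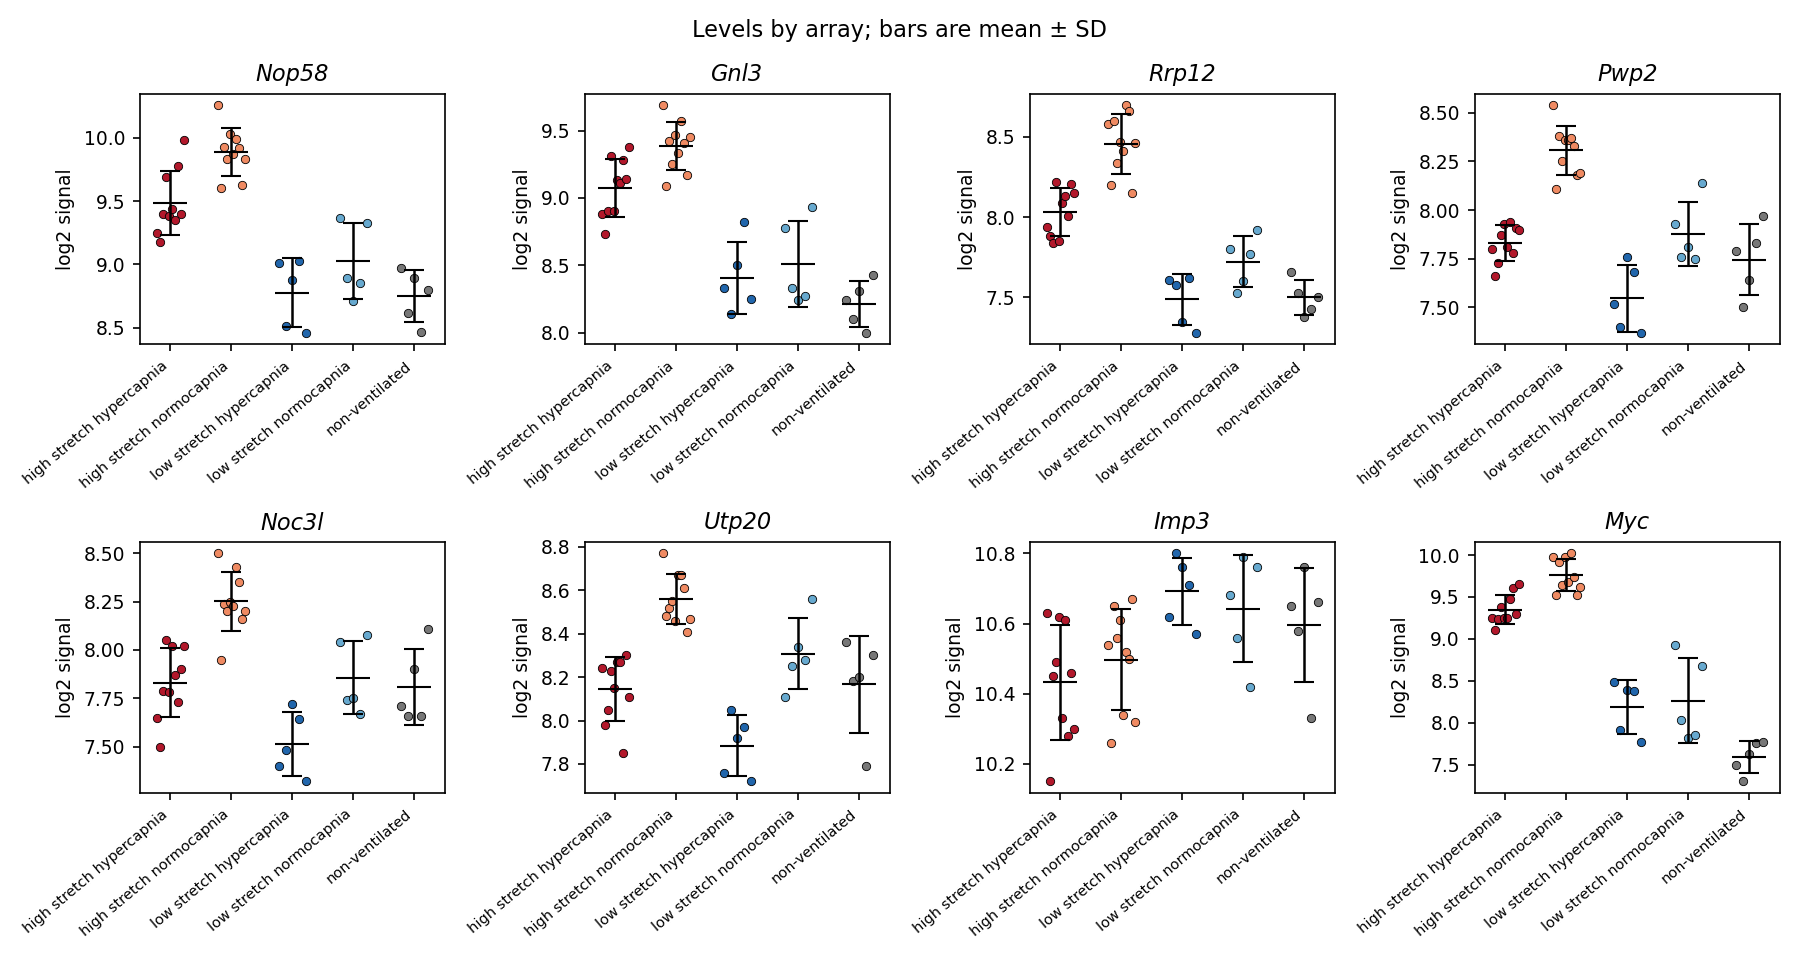
Log2 signal (y axes) by array (points) and group (x axes) for 7 of the genes and for Myc, with bars for mean ± SD. Pwp2 and Utp20 do not overlap between high stretch hypercapnia and high stretch normocapnia, and Imp3 runs from 10.15 to 10.63 in high stretch hypercapnia, against 10.57 to 10.80 in low stretch hypercapnia.

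Low stretch hypercapnia against low stretch normocapnia asks what CO2 did without a large tidal volume. None of the 53 genes passed by limma (0.0752% of all genes fell and 0.0401% rose). An unadjusted p under 0.05 was found in 26 of the 53 and in 1839 of all 19938 genes. The changes were nonetheless mostly on 1 side: 46 of 53 were below 0, against 47.6% of all genes, and the median was -0.15, against 0.01 over all genes. In 5 genes (Nop2, Pes1, Ddx18, Utp20 and Wdr3) all 5 arrays with CO2 lay below all 5 without it, as in 1.08% of all genes. Utp20, a large scaffold protein of the small subunit, was at 7.76, 8.05, 7.92, 7.97 and 7.72 in low stretch hypercapnia, against 8.11, 8.25, 8.34, 8.28 and 8.56 in low stretch normocapnia. Its groups did not overlap, and its change of -0.42 ± 0.10 (SE) had an adjusted p of 0.0649. Dkc1 was at 7.88, 8.02, 8.11, 8.26 and 8.00 in low stretch hypercapnia, against 8.38, 8.24, 8.42, 8.45 and 8.75 in low stretch normocapnia. Its arrays overlapped in 1 place, at a change of -0.39 ± 0.09 (adjusted p 0.0673). Both lie close to the threshold and crossed it under some alternatives, Utp20 with an adjusted p down to 0.0137 and Dkc1 down to 0.0111 with the spread of each array as a covariate. Among fits without 1 array, Utp20 passed without low stretch normocapnia replicate 1 (adjusted p 0.0464) or low stretch hypercapnia replicate 2 (0.046), and Dkc1 without low stretch normocapnia replicate 2 (0.0365).

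Whether CO2 acted differently at the 2 stretch levels was tested by the interaction, the CO2 change at high stretch minus that at low stretch. None of the 53 genes passed by limma (0.0% of all genes did). An unadjusted p under 0.05 was found in 2 of the 53 and in 893 of all 19938 genes, a like share. The median was -0.10, with 48 of 53 below 0, as were 53.0% of all genes. The 2 genes with the smallest p were Mybbp1a, at -0.19 ± 0.07 (SE, unadjusted p 0.0124, 95% interval -0.34 to -0.04), and Wdr43 of the UTP-A complex, at -0.21 ± 0.09 (unadjusted p 0.0325, 95% interval -0.39 to -0.02). Both had an adjusted p of 0.997. Mybbp1a ran from 9.36 to 9.61 with a median of 9.44 in high stretch hypercapnia and from 9.60 to 9.92 with a median of 9.82 in high stretch normocapnia. In low stretch hypercapnia it was at 9.24, 9.31, 9.30, 9.34 and 9.21, against 9.44, 9.28, 9.43, 9.44 and 9.52 in low stretch normocapnia. Wdr43 ran from 9.93 to 10.25 with a median of 10.06 in high stretch hypercapnia and from 10.13 to 10.57 with a median of 10.39 in high stretch normocapnia. It was at 9.76, 9.70, 9.87, 9.87 and 9.71 in low stretch hypercapnia, against 9.94, 9.78, 9.72, 9.80 and 10.08 in low stretch normocapnia. In both genes the arrays with CO2 were lower on average at either stretch level. The fall with CO2 passing at high stretch and not at low stretch is therefore not a shown difference between them, and the interval of Rcl1, the most negative of the list at -0.26, ran from -0.53 to 0.02.

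Low stretch normocapnia against non-ventilated lungs asks what ventilation at a modest tidal volume did, together with anaesthesia and surgery. A few genes rose: 6 of 53 rose (11.3%) and none fell, where 6.63% of all genes rose and 5.17% fell. When the 9969 genes above the median level were tested alone, 1431 of them rose, and 11 of the 53 passed. The share of the list was thus not far from that of genes of like level. The median was 0.13, against -0.01 over all genes, and 49 of 53 changes were above 0, as were 48.4% of those of all genes. In 3 genes (Nop14, Noc4l and Ddx21) all ventilated arrays lay above all non-ventilated ones, as in 4.65% of all genes. Tsr1 was at 9.47, 9.14, 9.19, 9.25 and 9.78 in low stretch normocapnia, against 9.13, 8.89, 9.03, 8.77 and 9.18 in non-ventilated lungs, a rise of 0.37 ± 0.11 (SE, 1.29-fold, adjusted p 0.0222). Utp14a, an activator of a pre-ribosomal helicase, was at 8.21, 8.10, 8.01, 8.18 and 8.37 in low stretch normocapnia, against 7.86, 7.66, 7.98, 7.62 and 8.10 in non-ventilated lungs, a rise of 0.33 (adjusted p 0.0116). Both overlapped slightly between groups. Nop14, a small subunit factor, was at 9.28, 9.15, 8.99, 9.06 and 9.42 in low stretch normocapnia, against 8.94, 8.86, 8.97, 8.85 and 8.89 in non-ventilated lungs, and all ventilated arrays were higher, by 0.28 (adjusted p 0.00431). The other passing genes were Mybbp1a (0.23), Polr1a (0.22) and Ftsj3 (0.26). None of the 6 passed when only the 2 compared groups were fitted, and the count rested on single arrays: it was 2 without non-ventilated replicate 2 or low stretch normocapnia replicate 5, 3 without non-ventilated replicate 4, also 3 without replicate 1 of low stretch normocapnia, and 10 once its replicate 3 was dropped.

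Many genes of the wider ribosome assembly machinery passed in the same directions in the stretch comparisons and with CO2 at high stretch. Of 98 other measured ribosome biogenesis genes 56 rose (57.1%, against 8.72% of all genes) and 1 (the exosome subunit gene Exosc7) fell at high stretch in normocapnia, with a median of 0.20. The largest rises were in Bysl, Nifk and Nol10 (0.56 each) and Pno1 (0.55). With CO2 at high stretch 45 of the 98 fell (45.9%, against 3.07% of all genes) and none rose, with a median of -0.16, led by Rrp15 (-0.43), Nifk (-0.39), Nol8 (-0.36) and Mrto4 (-0.36). At high stretch in hypercapnia 28 rose (28.6%, against 5.43% of all genes) and none fell, and at low stretch CO2 changed none by limma. With low stretch ventilation 5 of the 98 rose (5.1%, against 6.63% of all genes) and 1 fell (1.02%, against 5.17%), with a median of 0.11. Of 55 measured cytosolic ribosomal protein genes, whose products stay in the particle, 4 rose at high stretch in normocapnia (7.27%, near the 8.72% of all genes) with a median of 0.06: Rpl12 (0.85), Rpl24 (0.26), Rps15a (0.20) and Rpl41 (0.15). With CO2 at high stretch 1 of them fell (1.82%, against 3.07% of all genes), Rpl12 (-0.34), and the median was 0.00. Ribosomal protein genes have many near-identical copies in the genome, so single values there are uncertain.

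Enzymes that charge transfer RNAs, which serve the same protein synthesis from another side, passed in several comparisons. Of 18 measured tRNA synthetase genes 11 rose (61.1%, against 8.72% of all genes) and 1 (Qars) fell at high stretch in normocapnia, with a median of 0.24. The largest rises were in Cars (0.49), Gars (0.43), Iars (0.43) and Yars (0.41). With CO2 at high stretch 9 of 18 fell (against 3.07% of all genes) and none rose, with a median of -0.17, led by Iars (-0.44), Yars (-0.35), Cars (-0.32) and Tars (-0.31). At high stretch in hypercapnia 8 rose (44.4%, against 5.43%) and 1 (Wars, -0.24) fell. With low stretch ventilation 6 rose (33.3%, against 6.63%) and none fell, led by Cars (0.43) and Tars (0.40), and CO2 at low stretch changed none by limma. No test compared the lists with each other.

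**Figure D5:**
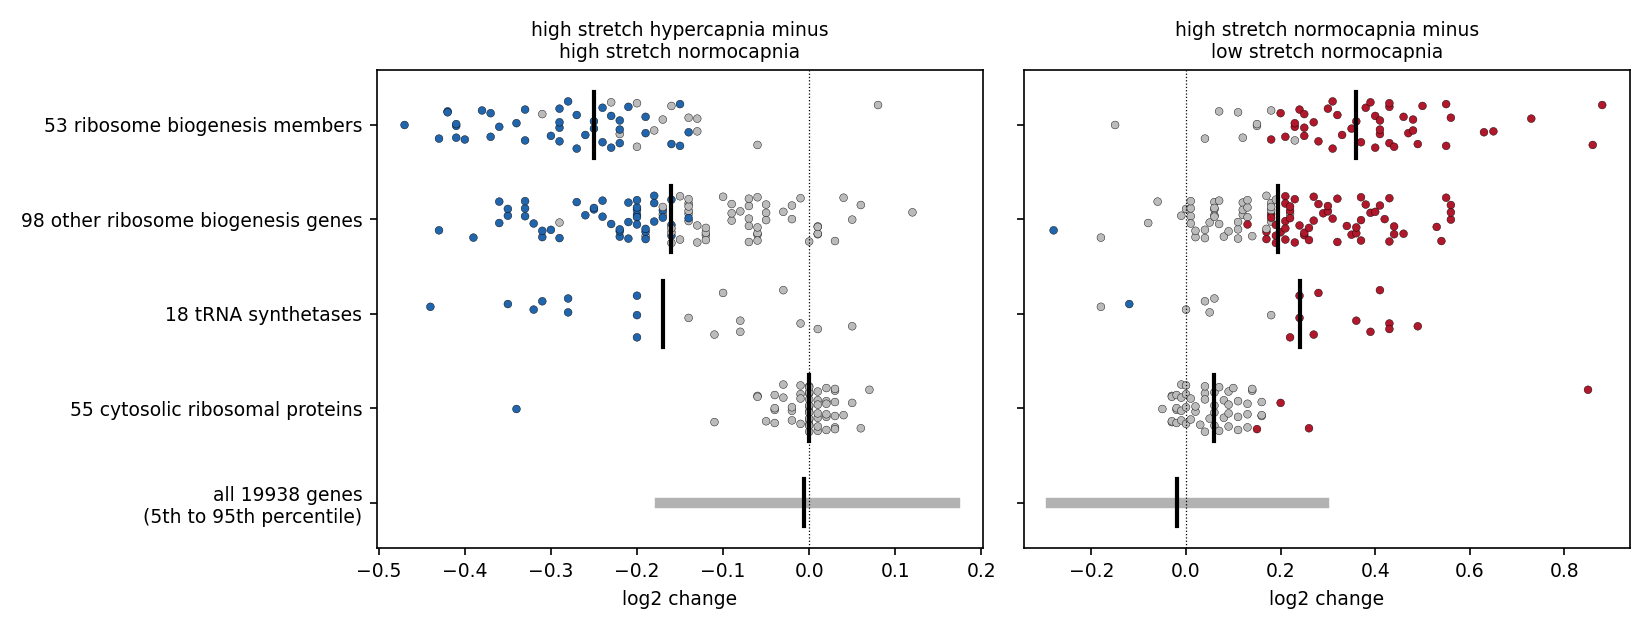
Log2 change (x axes) of single genes (points, red rose, blue fell, grey did not pass) in the 53 members, 98 other ribosome biogenesis genes, 18 tRNA synthetases and 55 cytosolic ribosomal proteins, with the median as a bar and the 5th to 95th percentile of all 19938 genes as a grey band. The members' median is -0.25 for high stretch hypercapnia minus high stretch normocapnia (left) and 0.36 for high stretch normocapnia minus low stretch normocapnia (right), against 0.00 and 0.06 for the ribosomal proteins.

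Myc, the transcription factor gene best known for driving ribosome production, averaged 9.35 ± 0.18 (SD, n = 10) in high stretch hypercapnia, 9.76 ± 0.20 (n = 10) in high stretch normocapnia, 8.18 ± 0.32 (n = 5) in low stretch hypercapnia, 8.26 ± 0.51 (n = 5) in low stretch normocapnia and 7.59 ± 0.19 (n = 5) without ventilation. By array it ran from 9.10 to 9.65 in high stretch hypercapnia and from 9.52 to 10.02 in high stretch normocapnia. It was at 8.49, 7.91, 8.39, 8.38 and 7.77 in low stretch hypercapnia, at 8.93, 8.03, 7.82, 7.85 and 8.67 in low stretch normocapnia, and at 7.50, 7.30, 7.62, 7.76 and 7.77 without ventilation. All high stretch arrays were above all low stretch arrays, and all ventilated arrays were at or above the highest non-ventilated one. Myc rose 2.83-fold (SE 0.14 on the log2 scale, limma adjusted p 1.51e-09) at high stretch in normocapnia, by 1.17 (2.24-fold, adjusted p 4.55e-07) at high stretch in hypercapnia and by 0.67 (adjusted p 0.00496) with low stretch ventilation. It fell by 0.41 (adjusted p 0.0284) with CO2 at high stretch. At low stretch CO2 did not change it past the threshold (adjusted p 0.952). Of the 12 genes of the MYC network 5 passed at high stretch in normocapnia, and the median of the 12 was -0.08. Myc and Mycn (0.33) were higher (16.7%, against 8.72% of all genes). Mycl (-0.34), Mxi1 (-0.24) and Mlxip (-0.17) were lower (25.0%, against 9.56% of all genes). With low stretch ventilation 4 of 12 rose (33.3%, against 6.63% of all genes), Mxd1 (1.17), Myc, Mlxip (0.51) and Max (0.19), and none fell. With CO2 at high stretch Mycn (-0.24) fell along with Myc, and Mlxip (0.24) rose. At high stretch in hypercapnia Mycl (-0.50) and Mxi1 (-0.24) fell while Myc rose. CO2 at low stretch changed none by limma. Whether Myc accounts for any of these changes was not tested.

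Markers of other cells moved in some of the same comparisons. Summed over 5 B cell markers, the signal ran from 9.27 to 9.88 in high stretch hypercapnia, 9.56 to 10.11 in high stretch normocapnia, 8.80 to 9.42 in low stretch hypercapnia, 9.01 to 9.71 in low stretch normocapnia and 10.46 to 11.14 without ventilation (log2 of the sum). All 5 rose at high stretch in normocapnia (median 0.49) and 4 in hypercapnia (median 0.52). With CO2 at high stretch none passed (median -0.23), and all 5 fell with low stretch ventilation (median -1.36). Of 10 neutrophil markers 8 rose with low stretch ventilation (median 3.14) and none passed in the stretch or CO2 comparisons. Their sum ran from 13.13 to 14.69 in high stretch hypercapnia, 13.33 to 14.44 in high stretch normocapnia, 13.22 to 14.77 in low stretch hypercapnia, 13.47 to 14.33 in low stretch normocapnia and 9.81 to 12.70 without ventilation. Of 7 proliferation genes, 1 rose at high stretch in normocapnia (Pcna, 0.26), and Pcna (-0.21) and Mcm5 (-0.20) fell with CO2 at high stretch. Pcna (0.21) also rose at high stretch in hypercapnia and Mcm2 (-0.25) fell with low stretch ventilation. Of 6 lung markers 1, the endothelial gene Cdh5 (-0.14), fell at high stretch in normocapnia, and the 1 erythroid marker measured did not pass in any comparison. The part of these cells in the changes of the biogenesis genes was not tested.

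The second probe sets of Wdr12, Fbl and Ddx18, whose numbers lie among those of the genes' own chromosomes, gave changes of the same sign for high stretch in normocapnia and for CO2 at high stretch. Put in place of the brighter ones in the fit of all genes by limma, they were at 0.27 (adjusted p 0.107), 0.24 (adjusted p 0.0016) and 0.15 (adjusted p 0.0586) for high stretch in normocapnia, in the order named. With CO2 at high stretch they were at -0.28 (adjusted p 0.0701), -0.14 (adjusted p 0.049) and -0.31 (adjusted p 4.21e-05). The calls of Wdr12 in both comparisons and of Ddx18 for stretch were thus lost, and those of Fbl in both and of Ddx18 for CO2 were kept. With low stretch ventilation Wdr12 gained a call, at 0.44 (adjusted p 0.0255) against 0.25 from the brighter probe set (adjusted p 0.116), which is above the 0.37 of Tsr1. With these 3 probe sets exchanged, 42 genes rose at high stretch in normocapnia, 39 fell with CO2 at high stretch, 31 rose at high stretch in hypercapnia and 7 rose with low stretch ventilation.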

How the data were processed

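Lung RNA of 35 mice was hybridised to 1 Affymetrix array per mouse. The deposited values are log2 signals per probe set; RMA, Affymetrix Expression Console and Partek are named in the submitters' processing notes, without version or role. Of 35557 probe sets 21789 carried 1 symbol in the platform annotation, 1621 several and 12147 none. Where a symbol had several, the brightest on average stood for the gene, which left 19938 genes, all of them tested whatever their level.

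A linear model with a mean for each of the 5 groups was fitted (limma 3.58.1, R 4.3.3, lmFit and eBayes, every array included) and 6 two-sided contrasts taken, with Benjamini-Hochberg adjustment over all genes within each contrast and a threshold of 0.05. The procedure was tested on simulated data with noise drawn independently for each gene, so the test does not cover effects that genes of an array share. The number of arrays limits the precision. The labels call each array a biological replicate and name no batch.

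Genes shown by array were, of the members that passed, those with the 3 biggest rises and the 3 biggest falls, or the 2 smallest p where none passed, with up to 4 of the largest passing genes of each other list. Myc is given throughout. The 5 genes whose arrays did not overlap, the exceptions and the genes near the threshold were chosen after their values were seen. The members and lists were chosen with earlier results of these data known. Alternatives were a fit to the compared groups alone, a block for the replicate number, array weights, eBayes with trend and robust options, a restriction to genes brighter than the median gene, every probe set separately, probe sets averaged by gene, centring on array medians, quantile normalization once more, the spread of each array as a covariate and fits without 1 array. Leaving out the arrays numbered 2 and the second probe sets of 3 genes were alternatives chosen later, with the values known.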

Additional observations from a re-analysis of the deposited data

Results flagged for a closer look

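In each group of arrays the highest and lowest value of every gene, and of the mean over the 53 genes, was compared with the rest of its group by Dixon's test. Of 270 such groups of values 8 had an array far from the others, where chance alone gives about 1 in 20. In all 8 it was the lowest array and was numbered replicate 2 of its group. In high stretch hypercapnia it was low for Nop56 (9.60), Rrp9 (7.88), Tbl3 (8.04) and Imp4 (8.86). In high stretch normocapnia it was low for Utp18 (7.95) and Rcl1 (8.00). In low stretch hypercapnia it was low for Nop2 (7.97), and in non-ventilated lungs for Nop56 (9.62). Replicate 2 also had the lowest mean over the 53 genes in high stretch hypercapnia (-0.19), high stretch normocapnia (0.07) and low stretch normocapnia (-0.19). The SD over all probe sets of these arrays was 2.21 in high stretch hypercapnia, 2.19 in high stretch normocapnia, 2.22 in low stretch hypercapnia, 2.20 in low stretch normocapnia and 2.21 in non-ventilated lungs, within a range of 2.19 to 2.26 over all arrays. The part of array quality in these values was not tested. With the arrays numbered 2 left out of every group, 40 genes rose at high stretch in normocapnia and 39 fell with CO2 at high stretch, against 44 and 40 with all arrays.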

How the results depend on the processing

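Medians of the 53 genes kept their sign and stayed within the spread between replicates under every alternative run. No gene of the list shown by array changed direction in the comparison for which it was chosen. Directions of the other genes were not checked in this way. Across fits without 1 array the number of genes passing was 38 to 46 for high stretch in normocapnia (median 0.34 to 0.40), 35 to 46 for CO2 at high stretch (-0.27 to -0.23), 23 to 38 for high stretch in hypercapnia (0.22 to 0.28), 2 to 10 for low stretch ventilation (0.09 to 0.17), 0 to 1 for CO2 at low stretch (-0.18 to -0.12) and 0 for the interaction (-0.14 to -0.08). In every such fit 38, 35, 21 and 2 genes kept their call in the first 4 of these. For low stretch ventilation the number was 6 as reported, 0 with only the compared groups, 3 with array weights and 11 among genes above the median level. Of all 19938 genes 1322 rose and 1031 fell as reported, 782 and 603 with only the compared groups, and 1407 and 1163 with array weights. Of the 9969 genes above the median level 1431 rose and 949 fell. For CO2 at low stretch the number of the 53 genes passing was 0, and became 1 with array weights, 2 with the trend and robust options, 3 among genes above the median level, 3 after a second quantile normalization and 4 with array spread as a covariate, all lower. The interaction gave 0 under every alternative.

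The labels do not say what the replicate numbers mark, and the data did not meet the rule for pairing, a correlation over 0.1 in every pair: same-numbered arrays correlated between -0.31 and 0.38 in their deviations from the group means, and the comparison with most matches, high against low stretch in normocapnia, had 4 of 5 arrays that correlated best with their own number. Whether arrays of 1 number share something, such as those numbered 2, was not settled. Replicate numbers 6 to 10 occur only at high stretch, so under a block for the number only the lower numbers set high against low stretch directly. With the replicate block the counts were 38, 43, 23, 5, 0 and 0 in the order above, and Imp3 lost its call at high stretch in hypercapnia (adjusted p 0.0751). It also lost it with only the compared groups, array weights, centred arrays and without the arrays numbered 2 (adjusted p 0.0506 to 0.142). Over all genes, counts moved by more than 1.5 times in these cases: low stretch ventilation from 2353 to 1385 with only the compared groups and to 1478 without the arrays numbered 2; CO2 at low stretch from 23 to 0, 4, 14, 64, 78 and 100 with only the compared groups, all probe sets, no arrays numbered 2, quantile normalization, genes above the median level and array spread; CO2 at high stretch from 1109 to 2052 with array weights; high stretch in hypercapnia from 2017 to 1269 with the replicate block. The cause was not tested.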
